A study of Mus musculus with 18 samples.

Results

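Cytosolic ribosomal protein (RP) genes were followed across 3 fat depots of high-fat diet (HFD)-fed wild-type (WT) and caspase-6 knockout (C6KO) mice. The members were chosen by symbol alone, as the genes whose symbols name a numbered large-subunit (Rpl) or small-subunit (Rps) protein, the stalk genes Rplp0, Rplp1 and Rplp2, and Rpsa. The deposited tables held 84 such genes among 25124, of which 51 encode large-subunit and stalk proteins and 33 encode small-subunit proteins. They comprised 76 canonical genes and 8 paralogs, which were Rpl3l, Rpl7l1, Rpl10l, Rpl22l1, Rpl32l, Rpl39l, Rps27l and Rps4l. Pseudogenes, the Rps6k kinases and Rpl34 were left out.

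RP genes encode the proteins that, with ribosomal RNA, build the small subunit, which decodes messenger RNA, and the large subunit, which joins amino acids. The stalk proteins recruit translation factors to the large subunit. Messenger RNAs of most canonical RP genes begin with a run of pyrimidines (a 5′ terminal oligopyrimidine tract) through which growth signalling controls their translation, and some RP genes have paralogs with tissue-restricted expression. Mitochondria translate their own messages with a separate set of ribosomal proteins.

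Poly(A) RNA was sequenced from inguinal white fat (iWAT), epididymal white fat (eWAT) and brown fat (BAT). Each depot had 3 WT and 3 C6KO libraries, 18 in all. All mice were males on the C57BL/6J background, bred from heterozygous parents, given a 60% fat diet for 12 weeks that began at 10 to 14 weeks of age, and fasted before sacrifice, so no chow-fed group was compared here. C6KO is a whole-body loss of caspase-6, a protease of cell death pathways, and is not specific to fat cells.

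Library totals ran from 16506034 to 19043523 counts in iWAT, from 16717201 to 19139694 in eWAT and from 7803108 to 12428683 in BAT. Casp6 had log2 fold changes for C6KO against WT of -1.85 in eWAT (edgeR quasi-likelihood test with Benjamini-Hochberg adjustment, adjusted p = 0.0132), -1.51 for iWAT (0.0751) and -1.50 for BAT (0.0671), so that only eWAT passed the adjusted threshold. Brown adipocyte markers summed to between 8580 and 19557 CPM (counts scaled to library size) in the BAT libraries, against 32.2 to 109 in the white depots. The second BAT WT library stood apart by its skeletal muscle markers, which summed to 40990 CPM against 142 to 7801 in the other 5 BAT libraries.

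The starts of RP transcripts are shown because the pyrimidine run is the sequence feature best known to be shared by these genes. RefSeq promoter sequences (GRCm38.p6, the assembly also called mm10) matched 63 of the 84 members. For 61 of them the RefSeq start lay within 5 bases of the start in the deposited tables. Each window below holds 15 bases before the annotated start and 15 from it onwards, 5′ to 3′ on the transcribed strand, and capitals mark a run of at least 8 consecutive C or T bases. The first 5 windows are of canonical genes and a paralog with a run, and the last 4 are of genes without one.
Rps6, chr4:86857353-86857382, minus strand: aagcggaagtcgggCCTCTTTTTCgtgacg
Rps15a, chr7:118116133-118116162, minus strand: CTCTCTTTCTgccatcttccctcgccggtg
Rps27, chr3:90213634-90213663, minus strand: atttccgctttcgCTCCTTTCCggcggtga
Rpl13, chr8:123102335-123102364, plus strand: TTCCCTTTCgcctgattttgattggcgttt
Rps27l, chr9:66946071-66946100, plus strand: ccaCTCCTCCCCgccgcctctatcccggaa
Rplp0, chr5:115559452-115559481, plus strand: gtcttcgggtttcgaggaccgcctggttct
Rpl10a, chr17:28328550-28328579, plus strand: gctctatttgagcgcatgcgcaaagcgctc
Rpl3l, chr17:24727811-24727840, plus strand: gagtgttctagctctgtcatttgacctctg
Rpl39l, chr16:10170213-10170242, plus strand: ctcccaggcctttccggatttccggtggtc

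A run of at least 8 pyrimidines was present in 23 of the 56 matched canonical RP genes (41.1%) and in 3 of the 7 matched paralogs. Over all 27025 genes of the promoter table, 3205 (11.9%) had one in the same window, searched on the transcribed strand only. For all genes the window was set at the first listed start, and for members at the listed start nearest the deposited one. The median longest run was 6 bases in canonical RP genes and 4 bases over all genes. In Rps6 and Rps27 the run spanned the annotated start, whereas in Rps15a, Rpl13 and Rps27l it lay upstream of it. The missing run in Rplp0 or Rpl10a says only that these letters are not in this window.

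The counted level of RP genes varied widely for proteins that are present in nearly equal numbers in ribosomes. On the scale of CPM per kilobase of the counted transcript, averaged over the 18 libraries, the stalk gene Rplp1 was highest at 810, and Rps15 at 374, Rps9 at 339 and Rpl8 at 334 were also among the highest. The lowest canonical genes were Rpl36a at 0.385, Rpl27 at 0.527, Rps29 at 0.542 and Rpl38 at 0.623. The highest level was 2103 times the lowest, and the median canonical gene was at 31.8 CPM per kilobase. Of the 76 canonical genes, 18 reached 100 CPM per kilobase, 32 lay from 10 to under 100, and 26 lay below 10. The 5 members with most counts held 32.8% of all member counts, and the 20 with most held 74.6%.

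RP genes have many processed pseudogenes, which can carry near-identical copies of their sequence. Stretches were taken from the longest annotated transcript matched to each gene. For some members this was longer than the counted transcript, as for Rps19 (2657 against 648 bases) and Rps24 (4059 against 1857 bases). Of the 50-base stretches, a median of 43.8% per member also occurred in the transcript of another annotated gene, against a median of 0% in 80 mitochondrial RP genes. In 35 members more than 50% of stretches were shared, and in 3 members none were. Rplp1, the highest member, had 60.0% of its stretches shared with 5 other genes. Across the 84 members the Spearman correlation of level with percent shared was -0.28 for 50-base stretches, -0.20 for 36-base and -0.38 for 75-base stretches, given as a description because the genes share their libraries. The methods speak of uniquely mapped reads in a normalization step, but whether the deposited raw counts hold only such reads is not stated there, so levels are compared between libraries below, and differences between genes may hold a part set by the counting. The part of shared sequence in the levels was not tested.

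**Figure D1:**
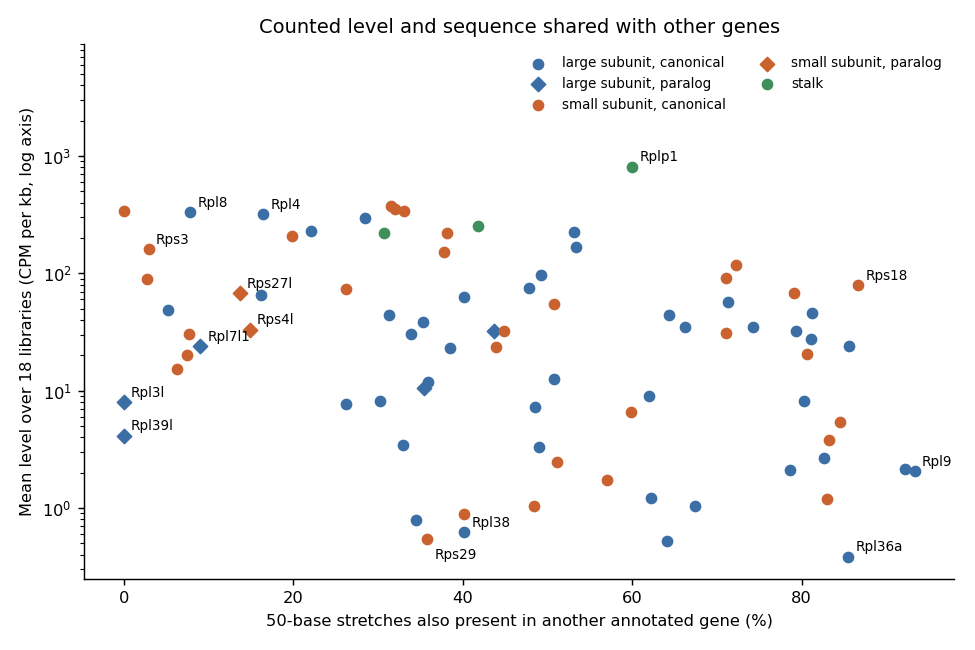
Each point is 1 RP gene (Rpl10l, with no counts, is not drawn). The x axis holds the percent of 50-base stretches in its longest matched transcript that also occur in another annotated gene. The log y axis holds its level in CPM per kilobase of the counted transcript, averaged over the 18 libraries. Levels run from 0.385 (Rpl36a) to 810 (Rplp1, 60.0% shared) among the canonical genes.

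As a set, RP genes took 0.380% to 0.794% of all counts in a library, and the share was highest in eWAT. The iWAT libraries had 0.482%, 0.450% and 0.472% (WT) and 0.399%, 0.499% and 0.511% (C6KO). The eWAT libraries had 0.701%, 0.794% and 0.705% (WT) and 0.489%, 0.688% and 0.706% (C6KO). The BAT libraries had 0.611%, 0.478% and 0.417% (WT) and 0.450%, 0.380% and 0.552% (C6KO). All 3 eWAT WT libraries thus lay above every iWAT and BAT library, and WT and C6KO overlapped in each depot. The first eWAT C6KO library stood apart from the other 5 eWAT libraries by its low share, and the first BAT WT library, the shallowest of the series, was the highest in BAT. In bulk tissue, fewer cells with high RP expression and less RP message per cell cannot be told apart.

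The group means of the share were 0.468% ± 0.0164 (SD, n = 3) in iWAT WT, 0.469% ± 0.0613 in iWAT C6KO, 0.733% ± 0.0528 in eWAT WT, 0.628% ± 0.120 in eWAT C6KO, 0.502% ± 0.0991 in BAT WT and 0.461% ± 0.0865 in BAT C6KO. The genes of both subunits moved together between libraries. The ratio of large-subunit (without the stalk genes) to small-subunit counts stayed between 0.890 and 1.05 in all 18 libraries, and its group means lay between 0.940 and 1.01. The median log2 deviation of the 56 members with a mean of at least 10 CPM from their own mean over all libraries (log2 of TMM-scaled CPM plus 1) was 0.26, 0.40 and 0.22 in eWAT WT and -0.15, -0.25 and -0.18 in iWAT WT. In the eWAT C6KO libraries the same measure was -0.23, 0.28 and 0.20, with the first library alone below 0. BAT WT replicate 1 reached 0.41 on this scaled measure, as high as the eWAT WT libraries, while the other BAT WT libraries were at -0.12 and -0.19.

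**Figure D2:**
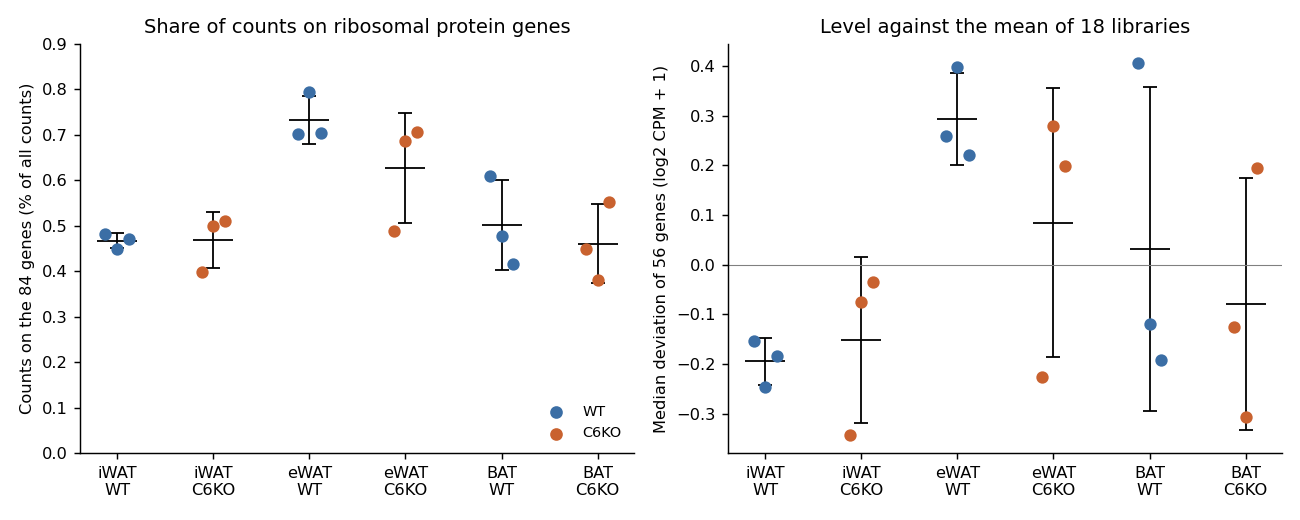
The left panel plots the percent of all counts on the 84 RP genes in each library by depot and genotype, and the right panel plots the median log2 deviation of the 56 well-counted members from their mean over the 18 libraries. Points are libraries and bars are means ± SD (n = 3), and the eWAT WT libraries (0.701% to 0.794%) lie above all iWAT and BAT libraries while the first eWAT C6KO library (0.489%) lies below the other eWAT libraries.

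Macrophage markers were highest in the eWAT WT library with the highest RP share, and among eWAT libraries lowest in the one with the lowest share. The 20 markers, none of which was at 0 in any library, summed to between 12087 and 17524 CPM in eWAT WT, 7620 and 9918 CPM in eWAT C6KO, 3794 and 4513 CPM in iWAT WT, 1160 and 2893 CPM in iWAT C6KO, and 649 and 1973 CPM in BAT. Within eWAT the second WT library was highest and the first C6KO library was lowest both in macrophage markers and in RP share. In iWAT the marker sums of WT and C6KO did not overlap while the RP shares did, and BAT had the lowest sums with shares that overlapped those of iWAT. Other cell types also differed between eWAT WT and iWAT WT. The 15 adipocyte markers, none at 0, summed to between 23120 and 25814 CPM in eWAT WT and 51625 and 53939 CPM in iWAT WT. The 14 lymphocyte markers, none at 0 in either, summed to between 201 and 350 CPM and between 51.9 and 75 CPM. The 9 mesothelial markers summed to between 133 and 229 CPM in eWAT WT, with none at 0, and between 1.55 and 2.91 CPM in iWAT WT, with 3 to 5 at 0. The first eWAT C6KO library was also the lowest of eWAT in mesothelial markers, at 49 CPM, and the highest in adipocyte markers, at 33991 CPM. The second eWAT C6KO library was close to it in adipocyte markers, at 33463 CPM, but had an RP share of 0.688% against 0.489%. The part of these cell types in the RP levels was not tested.

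The comparison of C6KO with WT asked whether loss of caspase-6 changed RP expression in each depot. No RP gene passed the test in any depot by edgeR's quasi-likelihood test, where a call required a Benjamini-Hochberg adjusted p below 0.05 over all genes tested together with a change of 1.5-fold or more. In iWAT 0 of 75 tested members were called, against 0.00688% of all genes called higher and 0.0206% called lower. In eWAT 0 of 75 were called, against 0.537% higher and 0.208% lower, and in BAT 0 of 74, against 0.169% higher and 1.07% lower. DESeq2 also called 0 members in each depot, where the shares of all genes it called were 1.18% (higher) and 3.53% (lower) for iWAT, 2.77% and 1.22% for eWAT, and 1.05% and 2.62% for BAT.

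At an unadjusted p below 0.05 by edgeR, 3 members were higher and 1 lower in iWAT, against 7.25% and 9.29% of all genes. In eWAT 0 were higher and 7 lower, against 9.81% and 7.82%, and in BAT 0 were higher and 1 lower, against 4.56% and 8.64%. The median log2 fold change of the members was 0.05 for iWAT (-0.01 under scaling by total counts), -0.18 for eWAT and -0.13 for BAT, while all genes had medians of 0.03, -0.01 and -0.03. Estimates were above 0 for 47 of 75 members in iWAT, 12 of 75 in eWAT and 14 of 74 in BAT, against 53.8%, 49.1% and 46.1% of all genes. The eWAT median was -0.035 without the first C6KO library, and the BAT median was 0.12 without the first WT library. The 95% interval of the fold change lay within 1.5-fold in either direction for 48 members in iWAT, 33 in eWAT and 23 in BAT, against 41.1%, 50.3% and 29.2% of all genes, so for the other members a change of that size was not excluded.

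Large-subunit (stalk included) and small-subunit members did not separate in these comparisons. Their median log2 fold changes were 0.02 and 0.07 for iWAT, -0.17 and -0.18 for eWAT, and -0.17 and -0.10 for BAT. The WT and C6KO libraries did not overlap for 5 members in iWAT (2 higher and 3 lower in C6KO, against 10.9% and 12.3% of all genes), 14 members in eWAT (0 higher and 14 lower, against 11.6% in each direction) and 4 members in BAT (0 higher and 4 lower, against 7.44% and 12.4%).

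**Figure D3:**
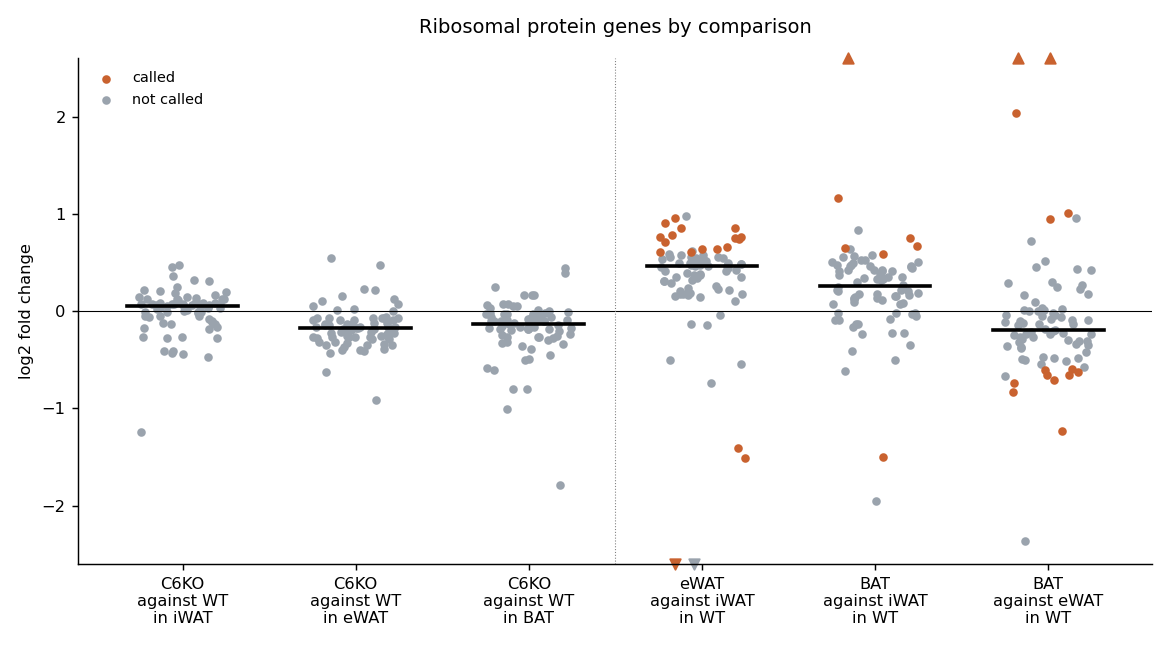
Each point is the log2 fold change of 1 tested RP gene for C6KO against WT in 3 depots and for 3 depot comparisons in WT, with genes past the test in orange, triangles at the edge for values beyond 2.6 and a black line at the median. The genotype comparisons hold no orange point and their medians lie at 0.05, -0.18 and -0.13, whereas eWAT against iWAT has its median at 0.46.

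Rps15a, a small-subunit gene whose start window holds a pyrimidine run, was counted at 130, 88.5 and 71.2 CPM in BAT WT and at 56.9, 49.3 and 82.7 CPM in BAT C6KO. The third C6KO library lay within the WT range, and the log2 fold change was -0.60 ± 0.25 (SE; edgeR adjusted p = 0.352). The eWAT libraries held 115, 120 and 94.4 CPM (WT) and 61.7, 96 and 90.1 CPM (C6KO), which overlapped, and the log2 fold change was -0.40 ± 0.17 (edgeR adjusted p = 0.257). Rps24, another small-subunit gene, was at 66.9, 83.6 and 71.9 CPM in eWAT WT and at 45.3, 62.1 and 57.4 CPM in eWAT C6KO. Its groups did not overlap there, and its log2 fold change was -0.43 ± 0.14 (adjusted p = 0.151).

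Rps27a, which encodes ubiquitin fused to a small-subunit protein, was low throughout. Its BAT counts were 15, 16 and 18 (WT) and 1, 13 and 13 (C6KO), a log2 fold change of -1.01 ± 0.63 (SE; edgeR adjusted p = 0.548). The first C6KO library, with a single count, lay far below the other 5. Rps28 had a log2 fold change of 0.44 in BAT, and in iWAT Rps27 had one of 0.47, Rps6 one of 0.36 and Rps7 one of -0.47, none past the test.

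Among large-subunit genes, Rpl13 was at 9.96, 7.87 and 8.55 CPM in eWAT WT and at 5.59, 6.47 and 5 CPM in eWAT C6KO. The groups did not overlap, and the log2 fold change was -0.62 ± 0.19 (SE; edgeR adjusted p = 0.124). Rpl5 and Rpl11, whose proteins bind the p53 regulator Mdm2 when ribosome assembly is disturbed, were not called. The log2 fold changes of Rpl5 were -0.28, -0.26 and -0.27 for iWAT, eWAT and BAT. Rpl11 rested on 7 to 30 counts per library and had 0.0046, 0.22 and 0.17. Rpl22, whose paralog is Rpl22l1, had 0.12, -0.27 and -0.10, and the low-count gene Rpl17 had its largest estimate in BAT, at -0.80 (edgeR adjusted p = 0.580).

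No stalk gene was called between genotypes. Rplp0, often used as a reference gene, ranged over 293 to 337 CPM in iWAT, 316 to 426 CPM in eWAT and 272 to 398 CPM in BAT. Its log2 fold change was 0.08 in iWAT with a 95% interval from -0.20 to 0.36, -0.09 in eWAT with an interval from -0.38 to 0.20, and -0.13 in BAT with an interval from -0.55 to 0.28. Rplp1 was at 499, 515 and 462 CPM in eWAT WT and at 334, 448 and 422 CPM in eWAT C6KO, without overlap, and its log2 fold change there was -0.29 ± 0.13 (SE; edgeR adjusted p = 0.291). Its 95% interval ran from -0.58 to 0.0045. Rplp2 was at 85.8, 81.8 and 75.2 CPM in iWAT WT and at 88.3, 110 and 101 CPM in iWAT C6KO, without overlap. Its log2 fold change was 0.31 ± 0.12 (SE; edgeR adjusted p = 0.260) for iWAT, -0.09 ± 0.12 for eWAT and 0.40 ± 0.22 for BAT.

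The paralog Rps4l (chr6:148354656-148355596, plus strand) had the lowest adjusted p of the members in iWAT. It was counted on a transcript with a RefSeq noncoding accession, so its counts do not show a protein. Its level was 44.7, 52.6 and 45.8 CPM in iWAT WT and 31.2, 34 and 40.4 CPM in iWAT C6KO, without overlap, and the log2 fold change was -0.43 ± 0.13 (SE; edgeR adjusted p = 0.196). With 1 library left out, the edgeR adjusted p ran from 0.0345 to 0.516. The estimates then ran from -0.56 to -0.36 and did not reach 1.5-fold, so no call was made. The eWAT libraries overlapped, at 19.2, 17.2 and 13.8 CPM (WT) and 14.9, 27.4 and 27 CPM (C6KO), and the log2 fold change there was 0.47 ± 0.24 (adjusted p = 0.356). The difference between these effects was 0.90 ± 0.33 (interaction adjusted p = 0.890).

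Rpl34, a large-subunit gene that is not among the members, was called lower in C6KO in all 3 depots. It had 361 to 1463 counts in the 9 WT libraries and 9 to 29 counts in the 9 C6KO libraries, while 0 of the 84 members were called. What caused the low counts of Rpl34 in C6KO was not tested. The test of the difference in genotype effect between depots called 0 of 80 members for each pair of depots, against 0% of all genes for eWAT and iWAT, 0.183% for BAT and iWAT and 0.536% for BAT and eWAT. At an unadjusted p below 0.05 by edgeR, the eWAT and iWAT test held 1 member higher and 4 lower (3.62% and 1.85% of all genes), the BAT and iWAT test 0 and 1 (3.56% and 6.37%), and the BAT and eWAT test 3 and 0 (2.89% and 8.34%). DESeq2 called 0 members in each, against 0.0557% and 0.0309%, 0.491% and 0.821%, and 0.415% and 2.08% of all genes higher and lower.

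Depots were compared within WT to describe how RP expression differed between fat types. The comparisons share their libraries in pairs. Each depot table was made separately, and 80 of the 84 members were counted on the same transcript in all 3 tables. The exceptions were Rpl22l1, Rpl35a, Rps15 and Rps28, for which a difference between depots may also hold a difference in transcript.

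In eWAT against iWAT, most RP genes had higher estimates. Of 80 tested members, 15 were called higher and 3 lower by edgeR, against 12.8% and 12.9% of all genes. The median log2 fold change was 0.46 where that of all genes was 0.01, and 70 of the 80 estimates were above 0, against 50.4% of all genes. The eWAT and iWAT libraries did not overlap for 54 members that were higher and 4 that were lower in eWAT, against 29.2% and 28.7% of all genes. Matched canonical genes with and without a run of at least 8 pyrimidines in the start window had medians of 0.48 and 0.39, over 23 and 31 genes. Under scaling by total counts, which moved the median of all genes by 0.14, 37 members were called higher and 3 lower.

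Among the small-subunit genes called higher were Rps15a with a log2 fold change of 0.85, Rps4x with 0.77, Rps3a1 with 0.76, Rps24 with 0.75, Rps3 with 0.66 and Rps18 with 0.64. Rps4x, the X-linked copy that rodents use, was at 159, 171 and 150 CPM in eWAT WT and at 98.7, 84.9 and 98.3 CPM in iWAT WT. Every eWAT WT library lay above every iWAT WT library.

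The large-subunit and stalk genes called higher were Rpl31 with a log2 fold change of 0.91, Rpl13 with 0.85, Rpl23 with 0.78, Rpl32 with 0.74, Rplp1 with 0.71, and Rpl26 and Rpl30 with 0.61 each. Rplp1 was at 499, 515 and 462 CPM in eWAT WT and at 307, 290 and 305 CPM in iWAT WT, without overlap (SE 0.20, edgeR adjusted p = 0.0133). Rplp0 had a log2 fold change of 0.34 ± 0.14 (adjusted p = 0.0788) and Rplp2 one of 0.19 ± 0.18 (adjusted p = 0.446), so of the 3 stalk genes Rplp1 alone was called. Whether the stalk genes differed from each other was not tested.

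The 3 members called lower in eWAT were the paralogs Rpl39l and Rps4l and the canonical gene Rpl23a. Rpl23a, whose protein lies at the exit of the nascent chain tunnel, was at 2.25, 1.49 and 1.12 CPM in iWAT WT and at 0.649, 0.590 and 0.581 CPM in eWAT WT, a log2 fold change of -1.40 ± 0.47 (SE; edgeR adjusted p = 0.0297). It rested on 11 to 38 counts per library. The call was lost without any 1 of the eWAT WT libraries or without iWAT WT replicate 1 or 2, with adjusted p from 0.0526 to 0.135. The calls of Rpl31 (without iWAT WT replicate 1 or eWAT WT replicate 2 or 3) and Rpl13 (without iWAT WT replicate 2 or eWAT WT replicate 1) were lost as well, with adjusted p from 0.0580 to 0.0774.

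The mitochondrial RP genes, which build the separate ribosome of mitochondria, had other counts and medians. Of 74 tested in eWAT against iWAT, 0 were called higher and 6 lower, against 12.8% and 12.9% of all genes, with a median log2 fold change of -0.31. In BAT against iWAT 70 were called higher and 1 lower, against 20.1% and 18.7% (median 1.23), and in BAT against eWAT 72 were called higher and 0 lower, against 25% and 23.6% (median 1.60). The corresponding medians of the cytosolic members were 0.46, 0.26 and -0.19.

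**Figure D4:**
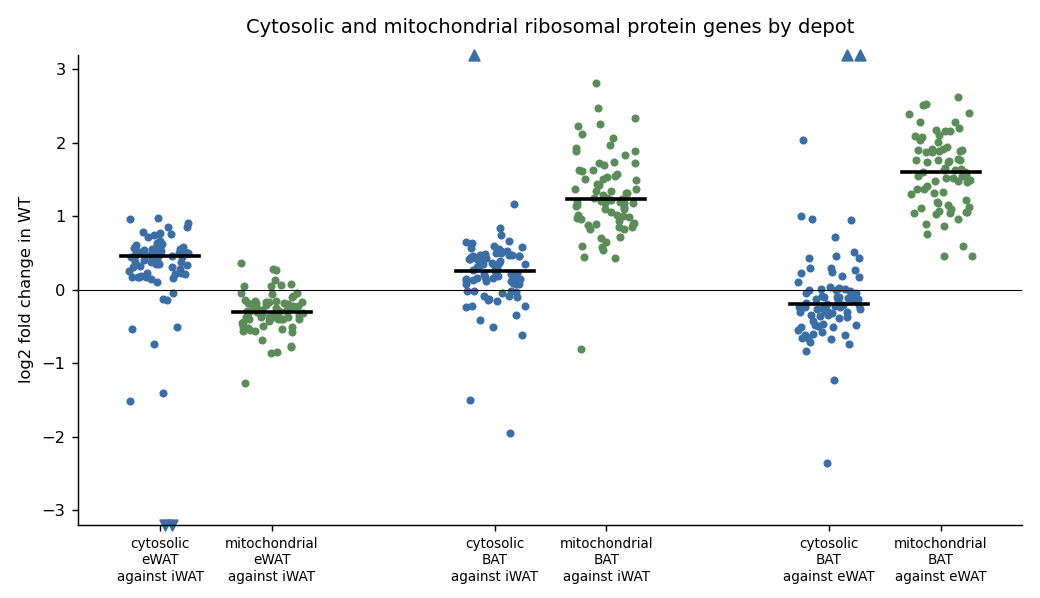
Log2 fold changes in WT are plotted for 3 depot comparisons, with each tested cytosolic RP gene in blue and each tested mitochondrial RP gene in green, triangles at the edge for values beyond 3.2 and a black line at each median. The mitochondrial genes lie near 1.23 and 1.60 in the BAT comparisons, where the cytosolic medians are 0.26 and -0.19.

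In BAT against iWAT within WT, 6 members were called higher and 1 lower by edgeR, against 20.1% and 18.7% of all genes. The median log2 fold change was 0.26, and it was 0.024 without the first BAT WT library, the one with the highest RP share in BAT. Without that library 3 members were called higher and 3 lower, without the third BAT WT library 13 were higher and 0 lower, and under scaling by total counts 3 were higher and 3 lower. The libraries did not overlap for 20 members that were higher and 3 that were lower in BAT, against 27.5% and 27.8% of all genes. The members called higher were the paralogs Rpl3l, Rps27l and Rpl7l1 and the canonical genes Rps15a (log2 fold change 0.67), Rps24 (0.65) and Rpl5 (0.59), and the member called lower was the paralog Rpl39l (-1.50).

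In BAT against eWAT within WT, 5 members were called higher and 9 lower, against 25% and 23.6% of all genes, with a median log2 fold change of -0.19. The members called higher were Rpl3l, Rpl39l, Rps27l, Rps4l and the canonical gene Rpl23a (log2 fold change 2.04). The 9 called lower were all canonical: Rpl10a with -1.23, Rpl32 with -0.83, Rps28 with -0.74, Rps10 with -0.71, Rpl35 and Rps18 with -0.65 each, Rpl37a with -0.62, Rps4x with -0.61 and Rps26 with -0.60. The number called lower moved to 28 under scaling by total counts, which moved the median of all genes by -0.29, to 23 without the first and 3 without the third BAT WT library, and to 5 without the second eWAT WT library. The libraries did not overlap for 7 members that were higher and 17 that were lower in BAT, against 32.3% and 31.9%.

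Rpl10a (chr17:28328565-28331033, plus strand), a large-subunit gene of the L1 stalk, was lowest in BAT in both genotypes. The WT libraries held 4.24, 6.73 and 5.29 CPM in BAT, 8.24, 9.4 and 7.39 CPM in iWAT and 12.3, 11.8 and 14.4 CPM in eWAT. The C6KO libraries held 3.45, 3.86 and 5.89 CPM in BAT, 6.5, 8.18 and 8.95 CPM in iWAT and 9.65, 14.2 and 16.6 CPM in eWAT. The 3 depots did not overlap within either genotype. For BAT against eWAT the log2 fold change was -1.23 ± 0.25 (SE; edgeR adjusted p = 0.000448) in WT and -1.61 ± 0.25 (adjusted p = 3.62e-05) in C6KO. For BAT against iWAT it was -0.61 ± 0.25 (adjusted p = 0.0526) in WT and -0.84 ± 0.25 (adjusted p = 0.0120) in C6KO.

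The paralogs held the widest depot differences of the members. Rpl39l (chr16:10170228-10174911, plus strand), the paralog of Rpl39 known for its expression in testis, had 113, 124 and 190 counts in iWAT WT and 149, 65 and 109 in iWAT C6KO. The eWAT libraries had 3, 5 and 1 counts (WT) and 4, 0 and 1 (C6KO), and the BAT libraries had 41, 13 and 16 (WT) and 23, 18 and 22 (C6KO). In CPM, which allows for the shallower BAT libraries, the eWAT libraries reached at most 0.246 and lay below all iWAT and BAT libraries. None of its 50-base stretches occurred in another annotated gene. The log2 fold change of eWAT against iWAT was -5.66 ± 0.72 (SE; edgeR adjusted p = 3.91e-05) in WT and -6.00 ± 0.77 (adjusted p = 2.45e-05) in C6KO, and that of BAT against eWAT was 4.16 ± 0.73 (adjusted p = 0.000118) in WT and 4.59 ± 0.79 (adjusted p = 9.10e-05) in C6KO.

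Rpl39l was at 6.7, 7.37 and 10.6 CPM in iWAT WT and 8.35, 3.57 and 6.25 CPM in iWAT C6KO. The BAT libraries held 5.99, 1.22 and 1.76 CPM (WT) and 2.94, 1.62 and 2.36 CPM (C6KO). The first BAT WT library thus lay within the range of the 6 iWAT libraries, while iWAT and BAT did not overlap within either genotype. The call for BAT against iWAT (log2 fold change -1.50 ± 0.57, edgeR adjusted p = 0.0388) was lost when any 1 of the 3 iWAT WT libraries, or BAT WT replicate 2 or 3, was left out, with adjusted p between 0.0526 and 0.131.

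Rps4l was also higher in iWAT than in eWAT. The WT libraries ranged over 44.7 to 52.6 CPM in iWAT, 13.8 to 19.2 CPM in eWAT and 24.8 to 47.6 CPM in BAT. The log2 fold change of eWAT against iWAT was -1.51 ± 0.24 (SE; edgeR adjusted p = 0.000183) in WT and -0.61 ± 0.23 (adjusted p = 0.0574) in C6KO.

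Rps27l (chr9:66946086-66949522, plus strand), a paralog of Rps27 that p53 induces, was higher in BAT. The BAT libraries held 97.3, 38.8 and 56 CPM (WT) and 52.4, 41.1 and 64 CPM (C6KO). It lay between 27.6 and 33 CPM in iWAT and between 23.7 and 39.4 CPM in eWAT, so that only the second BAT WT library fell within the range of a white depot. The log2 fold change of BAT against iWAT was 1.16 ± 0.27 (SE; edgeR adjusted p = 0.00197) in WT and 0.80 ± 0.26 (adjusted p = 0.0201) in C6KO. Canonical Rps27 was at 0.840 to 2.01 CPM in all 18 libraries and was not called in any comparison. It was counted on a transcript with a RefSeq noncoding accession, and 51.1% of its 50-base stretches also occurred in another annotated gene. Its low level against Rps27l may therefore hold a part set by the counting, which was not tested.

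Rpl7l1, a paralog of Rpl7, was at 100, 72.5 and 79 CPM in BAT WT and at 72.2, 77.7 and 70.6 CPM in BAT C6KO. It lay between 44.3 and 54.4 CPM in iWAT and between 51 and 62.7 CPM in eWAT, below every BAT library. The log2 fold change of BAT against iWAT in WT was 0.75 ± 0.13 (SE; edgeR adjusted p = 0.000135). The locus overlaps an annotated long noncoding RNA on the other strand, and whether counting used strand is not given in the sources used here.

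Rpl3l (chr17:24727829-24736149, plus strand), the paralog of Rpl3 that is known from striated muscle, had 4, 1537 and 48 counts in BAT WT and 157, 16 and 218 in BAT C6KO. The iWAT libraries had 3, 1 and 2 (WT) and 1, 0 and 3 (C6KO), and the eWAT libraries had 0, 0 and 0 (WT) and 1, 1 and 4 (C6KO). In CPM all 6 BAT libraries, from 0.584 to 144, lay above the white depots, which reached 0.208. The 14 skeletal muscle markers summed to 142, 40990 and 1786 CPM in the BAT WT libraries and to 6345, 462 and 7801 CPM in the BAT C6KO libraries, and no marker was at 0 in BAT. The 6 libraries had the same order by Rpl3l and by the muscle markers.

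The log2 fold change of Rpl3l for BAT against iWAT in WT was 8.65 ± 2.09 (SE; edgeR adjusted p = 0.00574), and it was 4.6 without the second BAT WT library (adjusted p = 0.00777). Against eWAT WT, where all 3 libraries were at 0, it was at least 1149-fold higher in BAT WT, with the floor set at 3 counts over the group (adjusted p = 0.00271). The second BAT WT library held 1537 of the 1589 counts, and without it the bound was at least 62.9-fold. The genotype difference in BAT was -1.79 ± 2.11 (adjusted p = 0.781) and turned to 2.29 without the second BAT WT library. The part of muscle in these values was not tested.

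**Figure D5:**
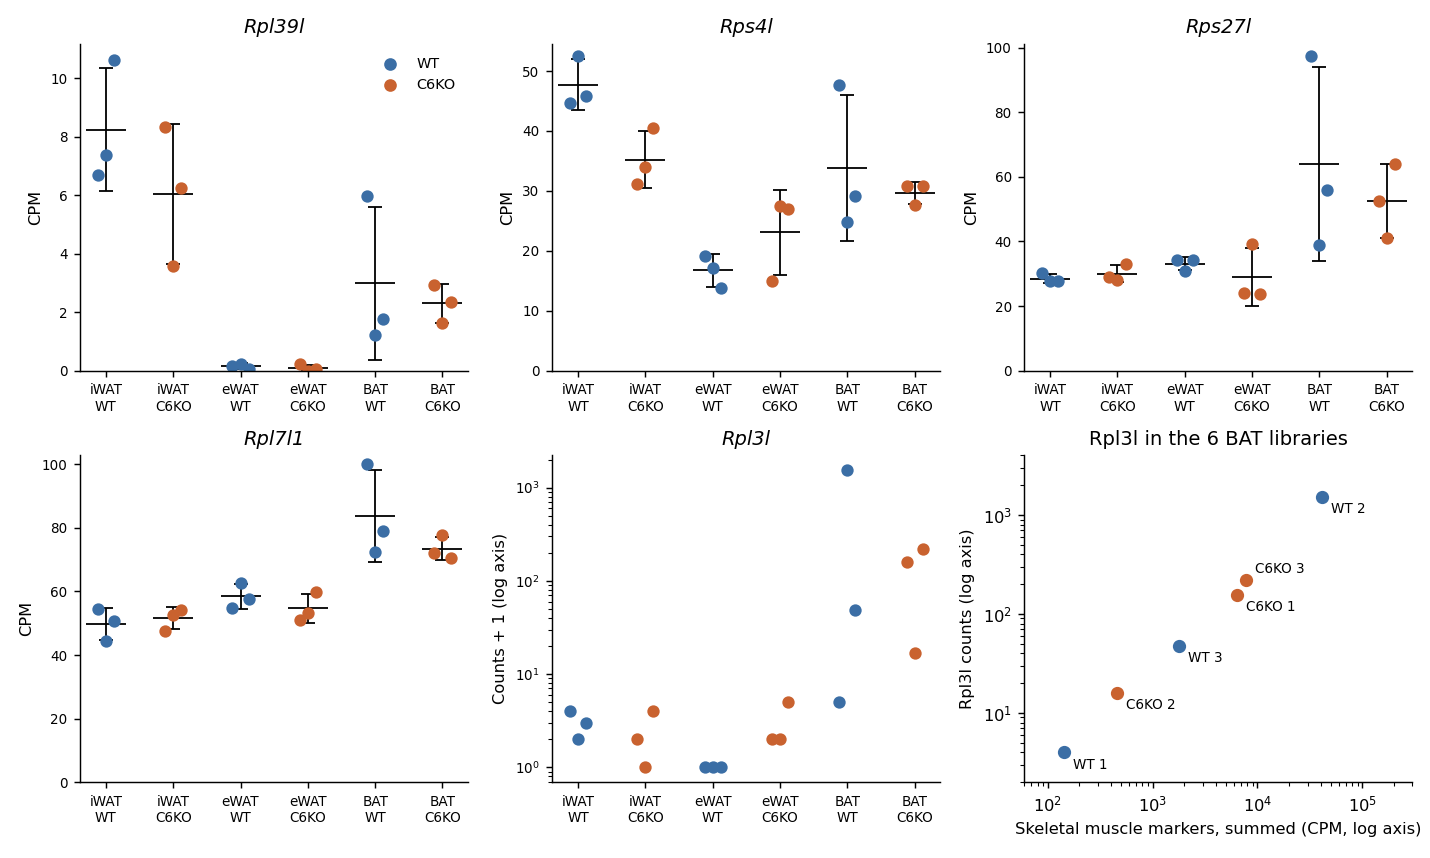
Levels of 4 paralogs are plotted in CPM by depot and genotype, with each library as a point (WT in blue, C6KO in orange) and bars for mean ± SD (n = 3), and Rpl3l is plotted as counts plus 1 on a log axis and against the summed skeletal muscle markers of the 6 BAT libraries. Rpl39l is lowest in eWAT. Rps4l has its lowest group means in eWAT, but its eWAT and BAT libraries overlap (27.4 CPM in eWAT C6KO replicate 2, 24.8 CPM in BAT WT replicate 2). Rpl7l1 is higher in all BAT libraries (70.6 to 100 CPM) than in white fat, and Rpl3l follows the order of the muscle markers.

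Of the other paralogs, Rpl22l1, the paralog of Rpl22, ranged from 11.7 to 25.3 CPM and Rpl32l from 3.6 to 9.78 CPM over the 18 libraries. Neither was called between depots in WT, but eWAT WT lay above iWAT WT without overlap for both. Rpl22l1 was at 19.3 to 24.6 CPM in eWAT WT and 14.6 to 17.7 CPM in iWAT WT. Rpl32l was at 6.87 to 9.03 CPM and 4.63 to 5.99 CPM. Rpl22l1 was counted on transcripts with RefSeq noncoding accessions. Rpl10l had 0 counts in all 18 libraries, which allows at most 3 counts in a library.

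The same depot comparisons within C6KO gave fewer member calls for the white depots. In eWAT against iWAT 1 member was called higher (Rpl10a, log2 fold change 0.77, edgeR adjusted p = 0.0204) and 1 lower (Rpl39l), against 14.1% and 10.5% of all genes, with a median of 0.20 over the members. In BAT against iWAT 3 were higher and 1 lower, against 18% and 20.2%, with a median of 0.084. In BAT against eWAT 5 were higher and 5 lower, against 23.6% and 26.5%, with a median of -0.13. Under scaling by total counts these 3 comparisons called 10 higher and 1 lower, 2 and 2 (median -0.0069), and 4 and 17. The 15 members called higher in eWAT WT against 1 in eWAT C6KO do not show that the depots differed by genotype, since 0 of 80 members passed the test of that difference. Its median over the members was -0.25. Without the first eWAT C6KO library, which had the low RP share, 7 members were called in C6KO in place of 2.

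Genes that work with RP genes were read from the same fits. Of 41 translation factor genes, 2 were called higher and 1 lower in eWAT against iWAT in WT, against 12.8% and 12.9% of all genes, with Tpt1 at a log2 fold change of 0.96 and Npm1 at 0.92, and Eif4g1, the scaffold of cap-dependent initiation, at -0.63. In BAT against iWAT 11 were called higher and 1 lower, against 20.1% and 18.7%. Of 52 ribosome biogenesis genes, 3 were called higher and 1 lower in eWAT against iWAT, and 17 higher and 0 lower in BAT against iWAT, against the same shares of all genes, among them the pseudouridine synthase Dkc1 (1.25), the export adaptor Nmd3 (1.09) and the nucleolar helicase Ddx21 (0.81). The genotype comparisons called 0 translation factor and 0 ribosome biogenesis genes in each depot. Rack1, a scaffold on the small subunit that the symbol rule did not include, had a log2 fold change of 0.73 in eWAT against iWAT.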

How the data were processed

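Poly(A) RNA libraries were sequenced on a NextSeq instrument. Per the paper's methods and the labels, the authors aligned reads to mm10 with STAR and counted reads over exons with HOMER, which kept a single transcript for each gene. They deposited raw counts in 1 table per depot. Tool versions, strand setting and read length are not given in the sources used here. The methods name uniquely mapped reads in a normalization step, not for the raw counts. No column of the authors' own comparisons was used.

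The RP genes and all gene lists were chosen with earlier results of these data known. Counts were tested with edgeR 4.0.16 (R 4.3.3; TMM scaling, filterByExpr, robust quasi-likelihood) over all genes of a table. Genotype was fitted within each depot, and depots and genotype-by-depot interactions in a joint fit of the 18 libraries. A call required a Benjamini-Hochberg adjusted p below 0.05 together with a change of 1.5-fold or more, and for interactions the adjusted p alone. DESeq2 1.42.0, other scalings, filters, a replicate block and leaving out each library were alternatives. Scripts were tested on simulated data. A count of 0 was given a floor of 3 counts, and such limits cover counting error only.

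Genes named by rule were members called for genotype or interaction, the 3 largest increases and 3 largest decreases per genotype and WT depot comparison among members with a mean of at least 1 CPM, a fixed set (the stalk genes, Rpsa, Rps6, Rps27a, Rpl5, Rpl11, Rpl22, Rpl41, Rps4x and the paralogs) and up to 5 called genes of each translation and biogenesis list. Other members called between depots, those at the ends of the level order, those with the lowest p for genotype and Rpl38 were named after their values were seen. Skeletal muscle, macrophage, brown adipocyte and other marker lists were summed as CPM. Shared sequence was computed from the longest GENCODE transcript matched to each gene, which was not always the counted one. Nothing in the labels says that replicates came from separate mice beyond their numbers, so p-values measure the spread between these libraries. Results of some members are not reported here, though counts and medians include all members.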

Additional observations from a re-analysis of the deposited data

How the results depend on the processing

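Counts of called members in genotype and interaction comparisons were 0 under every alternative run. Without the fold change minimum, calls rose to 26 higher in eWAT against iWAT, 14 higher in BAT against iWAT and 15 lower in BAT against eWAT in WT, and to 5 and 7 in eWAT and BAT against iWAT in C6KO. With total counts in place of TMM, 37 were higher in eWAT against iWAT, 3 higher and 3 lower in BAT against iWAT, and 28 lower in BAT against eWAT (median -0.49), with 11 in eWAT against iWAT and 21 in BAT against eWAT (median -0.38) in C6KO. In C6KO these 21 were 4 higher and 17 lower, and in eWAT against iWAT 10 were higher and 1 lower. Total counts also turned the median from 0.05 to -0.0078 for genotype in iWAT and from 0.084 to -0.0069 for BAT against iWAT in C6KO. With at least 10 counts in every library, 23 were higher and 1 lower in eWAT against iWAT, 3 higher in BAT against iWAT, 2 higher and 17 lower in BAT against eWAT, and 2 called in BAT against iWAT in C6KO. The causes of these shifts were not tested.

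Same-numbered libraries correlated between -0.46 (BAT WT with BAT C6KO) and 0.22 (iWAT with eWAT in WT) in their deviations. No comparison had every pair above 0.1. Between depots within a genotype, the mean of same-numbered pairs ran from -0.0020 (eWAT with BAT in C6KO) to 0.12 (iWAT with eWAT in WT). Whether same-numbered libraries of different depots came from the same mouse is not given, and these values cannot settle it. The main tests treated the libraries as separate. With the replicate block, 2 members in place of 1 were called lower in BAT against iWAT in WT, and Rpl3l in BAT turned to 1.13 (edgeR adjusted p = 0.956).

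Leaving out 1 library gave 10 to 18 higher in eWAT against iWAT, 3 to 13 higher and 0 to 3 lower in BAT against iWAT, and 3 to 23 lower in BAT against eWAT in WT. In C6KO it gave 1 to 7 in eWAT against iWAT (1 without iWAT replicate 1 or eWAT replicate 3, 4 without the second iWAT and 7 without the first eWAT library), 1 to 4 in BAT against iWAT (1 without the first iWAT library) and 6 to 15 in BAT against eWAT (6 without the second eWAT library). The count lower in BAT against iWAT was 0 without any 1 of the iWAT WT libraries. The median ranged from 0.024 to 0.36 for BAT against iWAT in WT and from -0.24 to 0.12 for genotype in BAT. The genotype estimate of Rpl11 in eWAT ranged from -0.18, without the second WT library, to 0.66, and that of Rpl3l in BAT from -2.31 to 2.29, the latter without the second WT library. With 3 libraries a group and under 20 counts for several members, small changes of low genes were not detectable.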

Other observations

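Levels of Rpsa, Rps6, Rpl41 and Rpl38 are given here. Rpsa, which encodes a small-subunit protein once named as a laminin receptor, was at 30.4 to 41.8 CPM in iWAT, 34.6 to 56.7 CPM in eWAT and 35.4 to 67.5 CPM in BAT. Rps6, whose protein is phosphorylated by S6 kinase, was at 5.04 to 9.11 CPM in iWAT, 6.25 to 9.14 CPM in eWAT and 6.83 to 11.2 CPM in BAT. Rpl41, the gene of the smallest ribosomal protein, was at 99.4 to 125 CPM in iWAT, 74.6 to 143 CPM in eWAT and 65.4 to 118 CPM in BAT, and the first C6KO library was the lowest of eWAT for both Rpsa and Rpl41. Rpl38 had 0 to 13 counts per library, and its 3 BAT WT libraries had 0, 1 and 1.

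Nap1l1, a histone chaperone in the translation factor list, was the gene of that list whose genotype effect differed between depots, by -1.18 on the log2 scale for BAT against iWAT (edgeR quasi-likelihood test with Benjamini-Hochberg adjustment, adjusted p = 0.0380) and -1.05 for BAT against eWAT (adjusted p = 0.0373).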
